A study of Mus musculus with 30 samples.

Results

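The comparison is E2F3 +/- against wild type mammary gland at day 3 of involution. It rests on 6 of the 30 arrays of the series, chosen by their labels: 3 E2F3 +/- and 3 wild type glands, each from a separate mouse and each taken at involution day 3. The other arrays hold both genotypes in glands labelled as lactation and on days 1, 2 and 4 of involution, again with 3 arrays in each group. They entered the model through its estimate of the spread. E2F3 +/- denotes 1 intact and 1 disrupted copy of E2f3, and the labels name no Cre or promoter that would restrict the disruption to a cell type. Strain, age and the way the allele was made were not given in the sources used here. RNA of the whole gland, labelled with Cy5, was hybridised with Cy3-labelled RNA from a common mouse reference. All values below are log2 ratios of gland over reference, centred on the median of each array, and a difference is E2F3 +/- minus wild type. That the deposited ratio runs in this direction is likely from the dyes named in the labels but is not written in the file.

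E2F3 belongs to the E2F family of transcription factors, which bind short motifs such as TTTCCCGC near gene starts and switch on genes of DNA replication and cell division when they are released from retinoblastoma proteins. Involution is the regression of the milk-producing gland after weaning. Milk-secreting cells die and are cleared, acute phase and lysosomal genes are switched on, the matrix is remodelled, and fat cells refill the space.

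The 6 arrays were not equal in their likeness to one another, which bears on every value that follows. Likeness was taken as Pearson's r over the 3968 probes measured on all 30 arrays, given as a description only. The 3 wild type day 3 arrays correlated at 0.958, 0.963 and 0.969 with one another. E2F3 +/- replicates 2 and 3 correlated at 0.931. E2F3 +/- replicate 1 correlated at only 0.832 and 0.862 with these other arrays of its group, and at 0.947, 0.948 and 0.951 with the wild type day 3 arrays. Replicate 1 therefore lay closer to the other genotype at the same time than to its own group. Set against group means from which its own value was left out, replicate 1 was most like wild type day 3 (r = 0.960) and then E2F3 +/- day 2 (0.948). By the same measure, some arrays of days 2 and 4 were also most like another group, among them every wild type day 4 array. E2F3 +/- day 4 replicate 3 was at 0.943 to wild type day 3 and at 0.781 to its own group. All lactation and day 1 arrays were most like their own group. Replicates 2 and 3 were most like E2F3 +/- day 4 (r = 0.961 and 0.953). Wild type groups of other days came close, with r = 0.952 to wild type day 2 for replicate 2 and 0.950 to wild type day 4 for replicate 3, while wild type day 3 was at 0.857 and 0.881. The median SD of a probe was 0.20 over the wild type day 3 arrays, 0.41 over the E2F3 +/- day 3 arrays and 0.28 over E2F3 +/- replicates 2 and 3. Whether replicate 1 or the other E2F3 +/- arrays represent the genotype at this day was not tested, and each result is given with and without replicate 1.

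**Figure D1:**
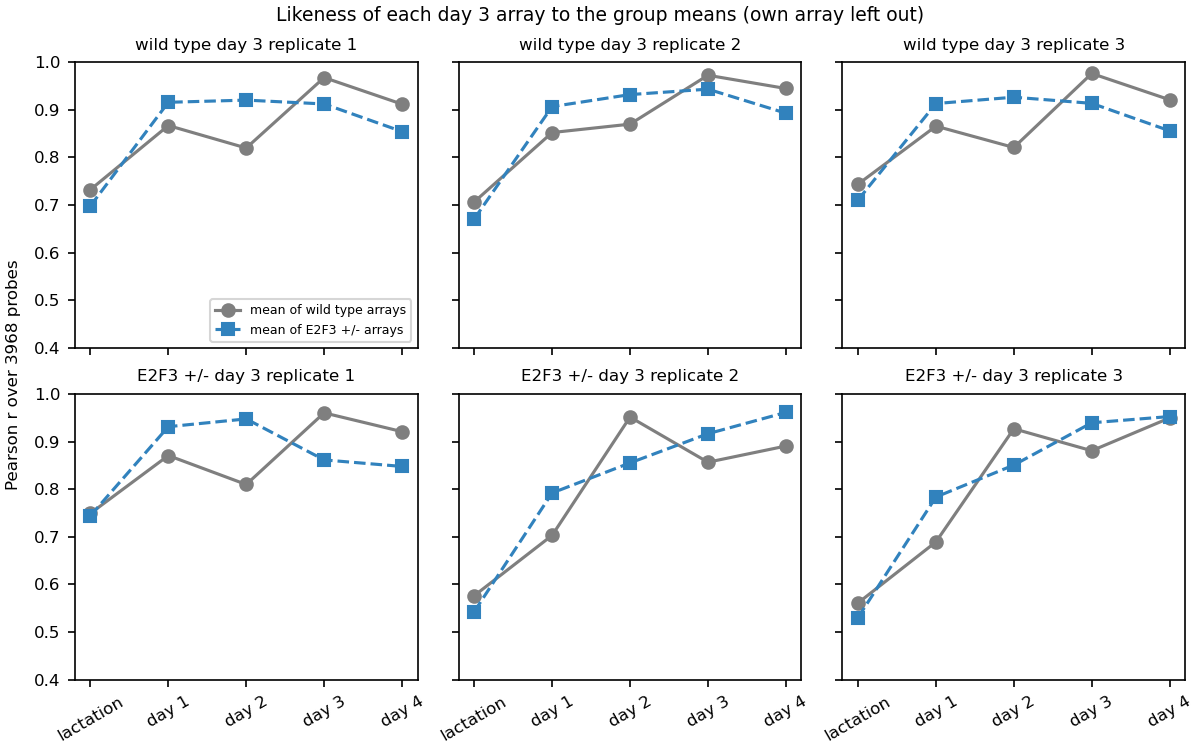
Pearson's r (y axis, no unit) between each day 3 array and the mean of every group (x axis, time point), over 3968 probes, with the array's own value left out of its group. Grey circles joined by a solid line are means of wild type arrays and blue squares joined by a dashed line are means of E2F3 +/- arrays. The panels of the 3 wild type arrays and of E2F3 +/- replicate 1 peak at wild type day 3, whereas those of E2F3 +/- replicates 2 and 3 peak at E2F3 +/- day 4.

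With all 6 day 3 arrays, no gene differed between the genotypes after correction for the number of probes tested. In limma, 0 of 5010 probes (0% called) reached a Benjamini-Hochberg adjusted p of 0.05, while 691 (13.8%) had an unadjusted p under 0.05, of which 305 (6.09%) were higher and 386 (7.7%) lower in E2F3 +/-. Of the 4922 tested probes measured on all 6 arrays, 536 (10.9%) had every E2F3 +/- value above every wild type value and 390 (7.92%) had every value below. Differences over 1 on the log2 scale, which is a change of at least a factor of 2, were seen for 428 probes. Without E2F3 +/- replicate 1, 365 probes (7.29%) passed, 98 higher (1.96%) and 267 lower (5.33%) in E2F3 +/-, and 937 probes differed by over 1. At an unadjusted p under 0.05 there were then 584 higher (11.7%) and 745 lower (14.9%). Leaving out any other day 3 array gave 0 or 1 passing probe.

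The targeted gene could not be checked, because no probe is named E2f3. E2f1, a close relative that also drives S phase genes, was the only member of the E2F family tested. Its log2 ratio was -2.05, -3.58 and -2.32 in wild type and -3.21, -2.25 and -3.42 in E2F3 +/-. The groups overlapped, and the difference of -0.31 ± 0.39 did not pass (adjusted p = 0.719, limma). Here and below, ± gives the standard error from limma and adjusted p values are limma's over all 5010 probes.

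The genes with the smallest p with all arrays, 5 in each direction, are described next as not passing. Among the higher ones was Idua, which encodes the lysosomal iduronidase that degrades glycosaminoglycans. Its log2 ratio was 0.40, 0.18 and -0.10 in wild type and 1.59 and 2.12 in E2F3 +/- replicates 2 and 3, with no value in replicate 1. The difference was 1.69 ± 0.36 (adjusted p = 0.296) and passed without replicate 1 (1.69, adjusted p = 0.0120), on the same Idua values. Nek9, a kinase of mitotic spindle assembly, likewise lacked a value in replicate 1. Its ratio was 0.44, 0.55 and -0.07 in wild type against 1.88 and 1.62.

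Cry1, a repressor of the circadian clock, was the gene of this group in which replicate 1 stood with its own genotype. Cry1 was at -1.58, -1.93 and -0.91 in wild type and at -0.26, 0.00 and -0.26 in E2F3 +/-. The groups did not overlap, with a difference of 1.30 ± 0.30 (adjusted p = 0.299) and of 1.34 without replicate 1 (adjusted p = 0.0235). Ttc5, a cofactor of p53 that also takes part in tubulin mRNA control, was at -0.37, -0.38 and -0.59 in wild type and at 0.08, 1.22 and 0.76 in E2F3 +/-. Zc3h11a, which encodes a zinc finger protein of mRNA export, was at -0.13, -0.25 and -0.50 against 0.32, 1.51 and 0.90. For both genes the E2F3 +/- arrays all lay above wild type, and replicate 1 was the nearest of them to wild type.

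Shisa5 had the smallest p of all tested probes. It encodes a membrane protein of the endoplasmic reticulum that p53 induces and that promotes apoptosis. Its log2 ratio was -0.43, 0.67 and 0.55 in wild type and -1.05, -1.85 and -1.69 in E2F3 +/-, so that every E2F3 +/- array lay below every wild type array. The difference of -1.80 ± 0.34 had an adjusted p of 0.107, and without replicate 1 it was -2.04 (adjusted p = 0.00572). At the other times the Shisa5 differences were -0.36 at lactation, -1.20 at day 1, 0.92 at day 2 and -0.33 at day 4, none of which passed.

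The other lower genes were Fkbp14, Cd47, Ercc3 and Uckl1. Fkbp14, a prolyl isomerase that folds collagens in the endoplasmic reticulum, was at 1.45, 0.43 and 0.89 in wild type and at -0.05, -2.19 and -1.90 in E2F3 +/-. Cd47, a surface protein that keeps macrophages from engulfing cells, was at 0.24, 0.39 and 0.70 against -0.48, -0.99 and -1.80. In both, replicate 1 lay between the wild type arrays and the other E2F3 +/- arrays. Differences with all arrays were -2.31 ± 0.59 for Fkbp14 and -1.53 ± 0.40 for Cd47 (adjusted p = 0.299 each). A second Cd47 probe differed by -0.41 and did not pass under either set of arrays.

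Ercc3, a DNA helicase of the transcription factor TFIIH, was at 1.79, 2.37 and 2.70 in wild type and at 1.10, 0.04 and -0.14 in E2F3 +/-. Uckl1, a uridine kinase-like enzyme, was at 0.18, 0.29 and 0.28 against -0.24, -1.26 and -0.76. For these 2 genes the probes disagreed: a second Ercc3 probe differed by 0.35 and a second Uckl1 probe by 0.31, both in the opposite direction and neither passing. All 10 genes passed when replicate 1 was left out, with adjusted p from 0.00510 for Ttc5 to 0.0235 for Cry1. A further fit of all arrays took the mean of 6 skeletal muscle genes as a covariate. These are the genes of the list described further on that were measured on all 30 arrays. Their median did not overlap between the genotypes at day 3, so this fit can also take out genotype difference. The difference then moved by over 1.5 times for Cd47 (to -0.99) and Fkbp14 (to -1.50), and by less for the other 8, including Shisa5 (-1.71).

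**Figure D2:**
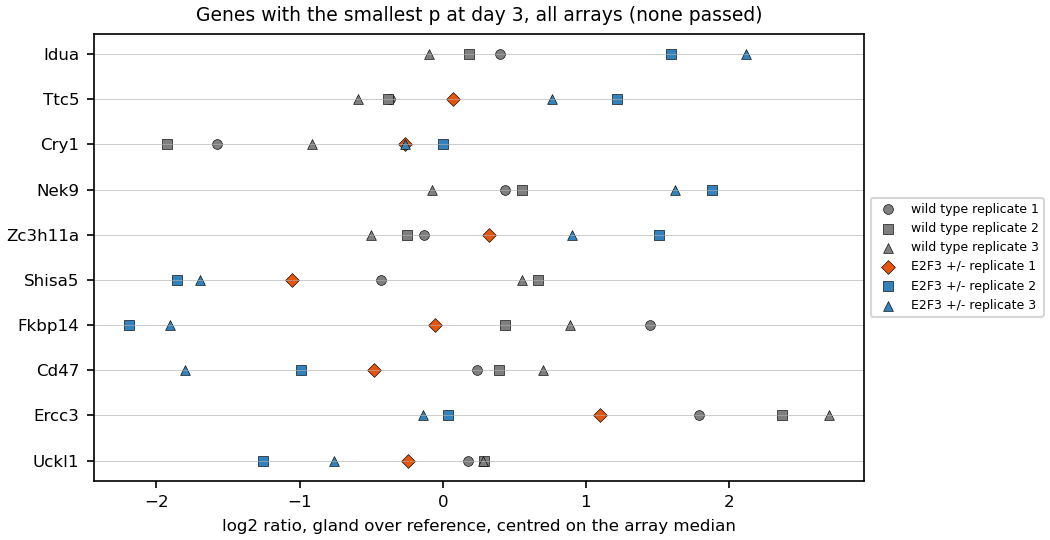
Log2 ratio of gland over reference, centred on the array median (x axis), of the 10 genes with the smallest p at day 3 (y axis), 1 point per array. Grey symbols are wild type, blue symbols are E2F3 +/- replicates 2 and 3 and the orange diamond is E2F3 +/- replicate 1. In none of the 10 genes does an E2F3 +/- array lie inside the wild type range, and Idua and Nek9 have no value in replicate 1.

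The genes called without replicate 1 followed mainly the other 2 E2F3 +/- arrays. Of the 365 probes, 360 were measured on all 6 arrays. On 175 of these the omitted replicate 1 lay within the wild type range, on 79 it lay beyond that range on the opposite side from the other E2F3 +/- arrays, and on 106 it lay on their side. Those 106 comprise 44 higher and 62 lower probes, on which all 3 E2F3 +/- arrays lie beyond all 3 wild type arrays. In all, 236 of the 365 carry a single gene symbol, and the genes of the next paragraphs are the 12 largest in each direction among those also measured on all 6 arrays, chosen after their values were seen. That condition leaves out Idua, described above, which has no value in replicate 1.

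Cyp2e1, Vldlr and Gpam had the largest rises without replicate 1. Cyp2e1, a cytochrome P450 that oxidises ethanol, ketone bodies and fatty acids, was at 5.58, 5.89 and 5.30 in wild type and at 6.37, 7.28 and 8.46 in E2F3 +/- replicates 1 to 3. Here all E2F3 +/- arrays were above wild type, and the difference without replicate 1 was 2.28 ± 0.70 (adjusted p = 0.0475). Vldlr, a receptor that takes up triglyceride-rich lipoproteins, was at -0.69, -0.56 and -1.02 against -0.54, 0.93 and 1.15, a difference of 1.79 ± 0.44 (adjusted p = 0.0214). Gpam, which catalyses the first step of glycerolipid synthesis in mitochondria, was at 1.83, 1.91 and 1.74 against 2.36, 3.38 and 3.84, a difference of 1.79 ± 0.47 (adjusted p = 0.0266). Replicate 1 was just above the wild type arrays for Vldlr and clearly above them for Gpam.

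Npr1, Npr2 and Podxl were also called higher. Npr1 and Npr2 encode the guanylyl cyclase receptors of the natriuretic peptides. Npr1 was at 0.88, 1.58 and 0.45 in wild type and at 2.37, 2.69 and 2.55 in E2F3 +/-, with replicate 1 beside the other arrays of its group. Npr2 was at -0.15, -0.47 and -0.55 against -0.50, 1.40 and 1.12, with replicate 1 inside the wild type range. Podxl, a sialomucin of endothelial and epithelial surfaces, was at 1.55, 2.39 and 2.15 against 2.84, 3.80 and 3.58 without overlap. The differences without replicate 1 were 1.65, 1.66 and 1.66 for Npr1, Npr2 and Podxl, with adjusted p of 0.0438, 0.0247 and 0.0345. The remaining 6 of the 12 were Aox1, Tns1, Maml1, Igfbp6, Ptp4a3 and Csad, higher by 1.51 to 1.69.

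The lower genes reached larger differences. Ndrg1, a gene induced by hypoxia and differentiation, was at 1.37, 0.18 and 1.00 in wild type, at 1.00 in E2F3 +/- replicate 1 and at -4.16 and -3.15 in replicates 2 and 3. Its difference was -4.50 ± 0.98 without replicate 1, a factor of 22.6 (adjusted p = 0.0122), and -2.95 with it (adjusted p = 0.321). The second Ndrg1 probe differed by -1.11 without replicate 1 and did not pass. Timp2, an inhibitor of matrix metalloproteinases, was at 0.00, -0.63 and -0.20 in wild type and at -0.58, -4.40 and -3.60 in E2F3 +/-, a difference of -3.72 ± 0.88 (adjusted p = 0.0178). For both genes replicate 1 fell among the wild type arrays.

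Replicate 1 was also apart from its group for Mras and Qsox1. Mras, a Ras-related GTPase, was at 2.40, 2.39 and 2.63 in wild type and at 2.64, -0.90 and -0.63 in E2F3 +/-, with a difference of -3.24 ± 0.67 (adjusted p = 0.00975). Qsox1, which forms disulfide bonds in secreted proteins, was at 1.85, 1.56 and 1.81 against 2.14, -2.14 and -0.79. In both, replicate 1 was above every wild type array while replicates 2 and 3 were below. Slc35b2 imports the sulfate donor PAPS into the Golgi, and it differed by -3.11 without replicate 1 (adjusted p = 0.0298). Golph3, a phosphoinositide-binding protein of the Golgi, differed by -2.89 (adjusted p = 0.0371). The second probe of each gene passed in the same direction, at -1.36 for Slc35b2 and -2.26 for Golph3.

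Bcar1 and Fkbp14 were the ones among these 12, together with Xist, in which all 3 E2F3 +/- arrays lay below wild type. Bcar1, an adaptor of integrin signalling, was at 1.87, 1.69 and 2.57 in wild type and at 0.39, -0.62 and -1.76 in E2F3 +/-, a difference of -3.23 ± 0.92 without replicate 1 (adjusted p = 0.0369). Xist, the non-coding RNA that silences an X chromosome, was at 1.18, 0.63 and 0.94 against 0.48, -2.03 and -2.01. The lysosomal sialidase Neu1 was at 1.31, 1.18 and 0.01 against 0.52, -2.88 and -1.29, so that replicate 1 lay within the wild type range. Foxb1 and Basp1 completed the list at -3.28 and -2.90.

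**Figure D3:**
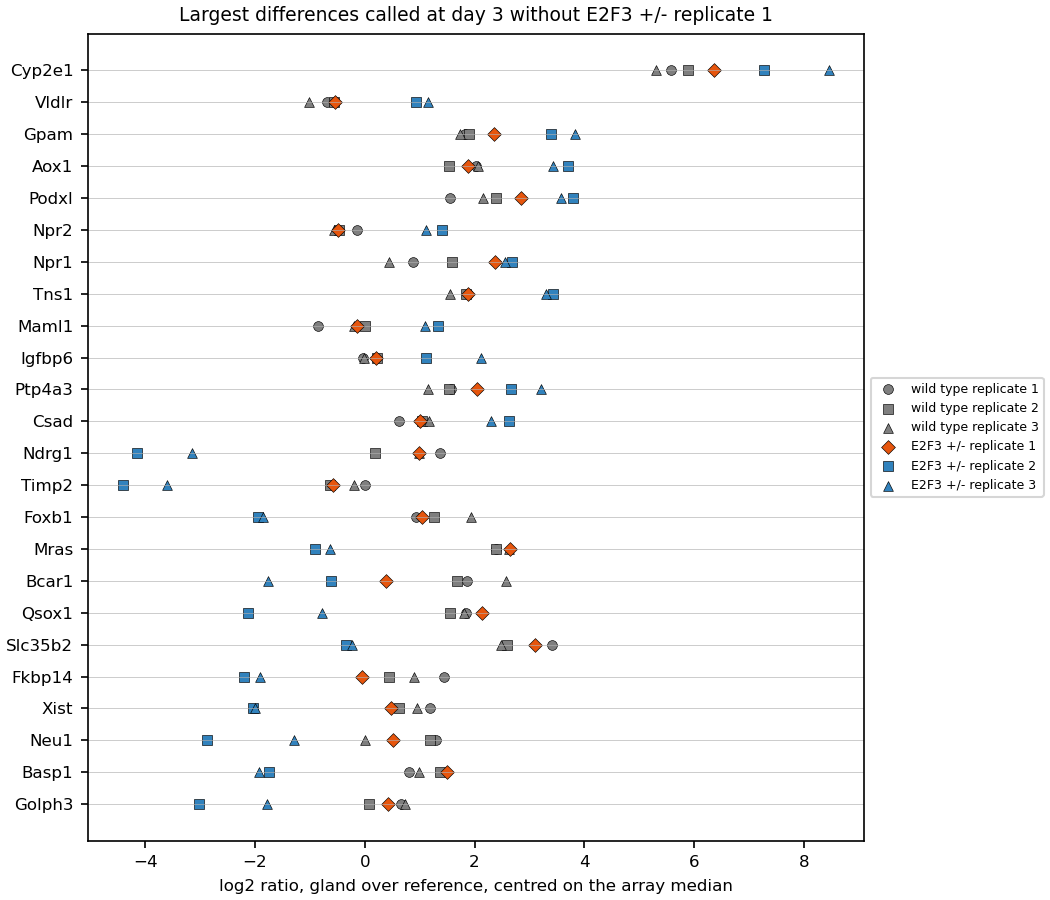
Log2 ratio of gland over reference, centred on the array median (x axis), of the 12 genes with the largest rise and the 12 with the largest fall among those called at day 3 without E2F3 +/- replicate 1 and measured on all 6 arrays (y axis), 1 point per array. Grey symbols are wild type, blue symbols are E2F3 +/- replicates 2 and 3 and the orange diamond is E2F3 +/- replicate 1, which was not used to call them. For Ndrg1, Timp2 and Mras the diamond lies with the wild type arrays and the blue symbols lie at -0.63 or lower.

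Whether the day 3 difference was particular to day 3 was tested against the mean genotype difference at the other 4 times. With all arrays 0 of 5010 probes passed (0%), with 664 (13.3%) at an unadjusted p under 0.05, 309 higher (6.17%) and 355 lower (7.09%). Without E2F3 +/- day 3 replicate 1, 302 passed (6.03%), 89 higher (1.78%) and 213 lower (4.25%) at day 3 than at the other times. Mras passed (-3.37, adjusted p = 0.0116), as did Ndrg1 (-4.87, adjusted p = 0.0122) and Neu1 (-2.92, adjusted p = 0.0133). The mean of the other times holds a day 2 difference of opposite sign, 2.80 for Mras, 3.74 for Ndrg1 and 1.37 for Neu1. Their day 4 differences had the sign of day 3, at -0.39, -1.54 and -0.79. Gpam (1.40, adjusted p = 0.0925), Npr1 (1.14, adjusted p = 0.184), Xist (-2.68, adjusted p = 0.0722) and Bcar1 (-2.52, adjusted p = 0.117) did not pass this test.

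The other times show where the called genes stood in the course of involution. Of the 267 probes called lower at day 3 without replicate 1, 149 were measured on all 30 arrays. Their median log2 ratio was 0.01, -0.21 and 0.09 on the wild type day 3 arrays, -0.04 on E2F3 +/- replicate 1, and -2.04 and -1.75 on replicates 2 and 3. It was -1.49, -1.33 and -2.16 on the wild type day 2 arrays but -0.69, -0.54 and -0.29 on E2F3 +/- day 2. At day 4 it was -0.48, -0.91 and -1.03 in wild type and -2.26, -2.23 and -0.19 in E2F3 +/-, and at lactation and day 1 it stayed between -0.35 and 0.36. These genes were thus low in wild type at day 2, higher at day 3 and in between at day 4. In E2F3 +/- they were low on replicates 2 and 3 of day 3 and on all but 1 array of day 4. The values on day 3 follow from how the probes were called.

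The genotype difference of these probes changed sign between the days. Of the 267, 261 had a difference above 0 at day 2 (median 1.10) and 231 a difference below 0 at day 4 (median -0.57), beside 2631 and 2679 of all 5010 tested probes. The 98 probes called higher mirrored this, with 92 below 0 at day 2 (median -0.61) and 79 above 0 at day 4 (median 0.28). With all arrays, day 2 had the most genotype calls, with 638 probes (12.7%), against 19 at lactation (0.379%), 33 at day 1 (0.659%) and 56 at day 4 (1.12%). Day 3 had 0 calls with all arrays and 365 (7.29%) without replicate 1. The day 2 and day 4 comparisons use other mice than day 3. The called probes were selected on the day 3 difference without replicate 1. The spread it was judged by came from the arrays of all times, so the day 2 and day 4 arrays had a part in the selection.

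**Figure D4:**
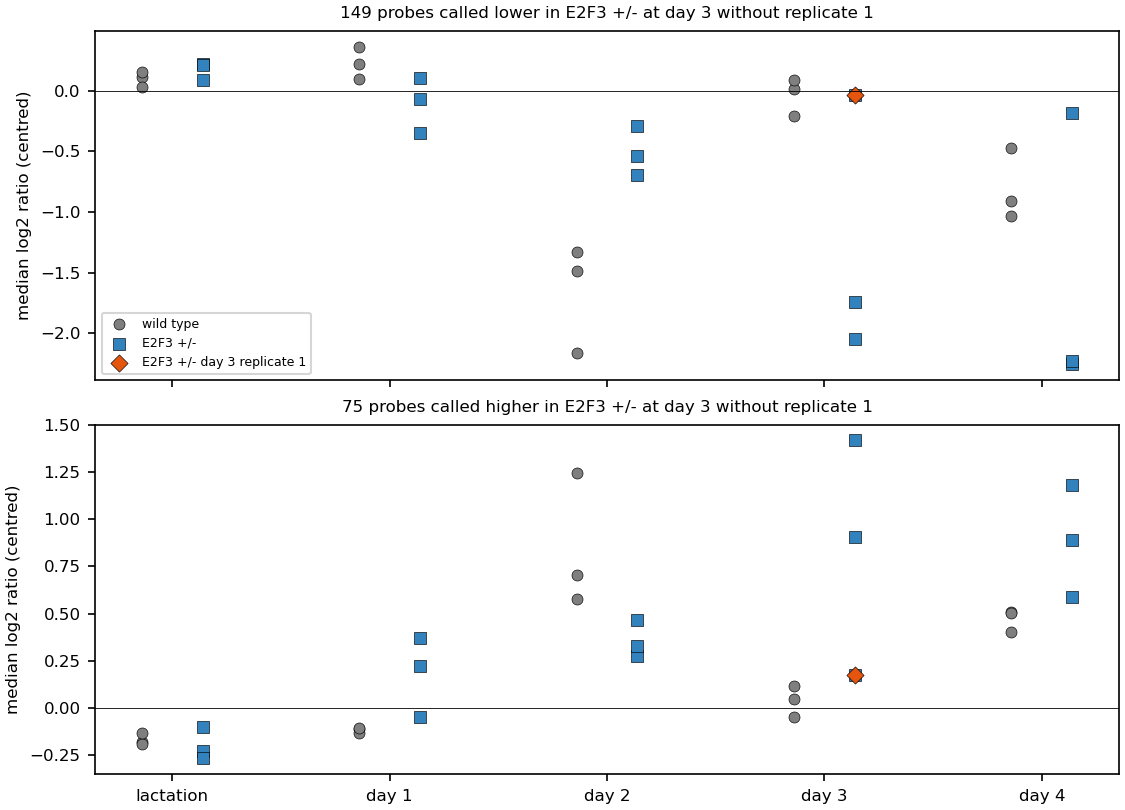
Median log2 ratio of gland over reference, centred on the array median (y axis), on each of the 30 arrays by time point (x axis), over the 149 probes called lower (upper panel) and the 75 called higher (lower panel) at day 3 without E2F3 +/- replicate 1 and measured on all arrays. Grey circles are wild type, blue squares are E2F3 +/- and the orange diamond is E2F3 +/- day 3 replicate 1, which sits at -0.04 and 0.17, beside the wild type day 3 arrays. The values on day 3 follow from how the probes were called.

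Gene lists were described by counts over 2901 tested genes, 1 probe each. Without replicate 1, 79 genes (2.72%) were called higher and 127 (4.38%) lower. With all arrays no member of any list passed, 1576 genes (54.3%) had a difference above 0, 217 genes (7.48%) were higher and 196 (6.76%) lower at an unadjusted p under 0.05, and the median difference was 0.05 (0.12 without replicate 1). Of the 2856 genes measured on all 6 arrays, 303 (10.6%) had all E2F3 +/- arrays above wild type and 213 (7.46%) had all below. In whole-gland RNA, fewer cells of a type and less RNA per cell cannot be told apart.

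Skeletal muscle genes were the list that stood farthest from 0. Of 17 tested members, 16 were higher in E2F3 +/-, 12 without any overlap of the groups, with a median difference of 1.65 (1.84 without replicate 1). The list median per array was 2.38, 3.16 and 1.89 in wild type and 3.82, 4.64 and 4.80 in E2F3 +/-. By this median replicate 1 lay above every wild type array, though it was the nearest of the E2F3 +/- arrays to them. Of the 360 called probes measured on all 6 arrays, it lay beyond wild type on the side of its group on 106. None of the 17 passed, with 4 at an unadjusted p under 0.05.

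Pvalb, a calcium buffer of fast fibres, was at 1.66, 2.89 and 1.22 in wild type and at 3.82, 4.64 and 4.80 in E2F3 +/-, a difference of 2.50 ± 0.98 (adjusted p = 0.338). Myh2, a fast myosin heavy chain, was at 7.52, 7.32 and 6.19 against 9.34, 9.71 and 9.41 (2.47 ± 0.84, adjusted p = 0.321). Mb, the oxygen store myoglobin, was at 4.07, 4.37 and 2.61 against 4.77, 5.46 and 6.67 (1.95 ± 0.87, adjusted p = 0.358). The exception was Tpm1, a tropomyosin shared with other cell types, at -0.42, although a second Tpm1 probe differed by 2.10. Across the series the median of the 6 muscle genes measured everywhere ran from -0.45 to 1.22 in wild type lactation, from 2.21 to 5.37 in wild type day 2 and from 0.47 to 5.84 in E2F3 +/- day 4. The muscle covariate, here and wherever the muscle list is named as a covariate, is the mean of these 6 genes. On the day 3 arrays the median of these genes ran from 1.47 to 3.03 in wild type and from 3.74 to 4.69 in E2F3 +/-. The covariate was thus itself split by genotype, and a fit with it can take out genotype difference as well. Whether muscle content accounts for any call was not tested. With this covariate in the model, 60 probes passed without replicate 1, 9 higher and 51 lower, in place of 365. With all arrays 0 passed.

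**Figure D5:**
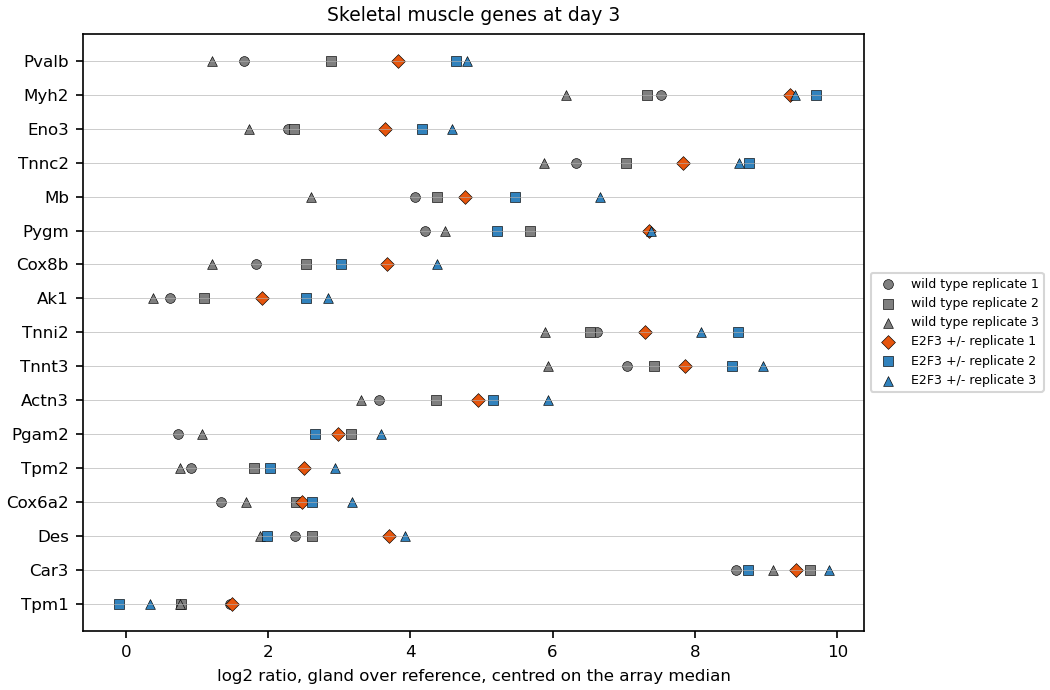
Log2 ratio of gland over reference, centred on the array median (x axis), of the 17 tested skeletal muscle genes (y axis), 1 point per day 3 array. Grey symbols are wild type, blue symbols are E2F3 +/- replicates 2 and 3 and the orange diamond is E2F3 +/- replicate 1. In 12 genes the E2F3 +/- arrays all lie to the right of the wild type arrays, while Tpm1 lies the other way.

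Of the adipocyte genes, 1 passed without replicate 1 and none with all arrays. All 9 tested members had a difference above 0, with a median of 0.83 (1.09 without replicate 1), but only 1 was without overlap. Lpl, the lipoprotein lipase that releases fatty acids for uptake, was at 4.97, 4.86 and 5.04 in wild type and at 5.03, 6.12 and 6.31 in E2F3 +/-, and passed without replicate 1 (1.25 ± 0.38, adjusted p = 0.0456). Pck1, an enzyme of glyceroneogenesis, was at 6.24, 4.82 and 5.17 against 6.16, 7.34 and 7.37 and did not pass (1.55 ± 0.73, adjusted p = 0.358). Slc2a4, the insulin-responsive glucose transporter of fat and muscle, was the member without overlap, at 4.50, 5.09 and 3.88 against 5.27, 6.04 and 6.86. Its difference was 1.57 ± 0.88 (adjusted p = 0.427), and 0.65 with the muscle list as a covariate (adjusted p = 0.983). The reference signal of Slc2a4 and Adipoq, and of the milk fat gene Btn1a1, seems to sit at a fixed lowest value, so their ratios are bounded by it.

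Energy metabolism genes leaned the same way as the muscle list. For oxidative phosphorylation, 25 of 30 members were above 0, 9 were above wild type on all arrays and 0 were below, with a median of 0.25 (0.40 without replicate 1) and 0 calls. Atp5a1, a subunit of ATP synthase, was at 0.58, 0.90 and 0.70 in wild type and at 0.94, 1.78 and 1.92 in E2F3 +/- (0.82 ± 0.37, adjusted p = 0.358). In the TCA cycle and glycolysis list, 21 of 26 were above 0, with a median of 0.40, 9 above and 4 below without overlap. Pfkm, the muscle form of phosphofructokinase, was at 0.30, 0.58 and 0.09 against 1.40, 2.59 and 2.66 (1.89 ± 0.89, adjusted p = 0.358). Only Ugp2, which makes UDP-glucose, passed without replicate 1, and it was lower (-1.48, adjusted p = 0.0390). With the muscle covariate, the difference with all arrays was 0.36 for Atp5a1 and 0.44 for Pfkm (adjusted p = 0.968 and 0.983).

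Genes of milk making did not move as 1 group. Of 7 milk protein genes, 6 were below 0, with a median of -0.47 (-0.87 without replicate 1) and 0 calls. Btn1a1, which coats secreted milk fat, was at 5.85, 5.06 and 5.34 in wild type and at 6.08, 0.39 and 3.11 in E2F3 +/-. Lalba, the whey protein alpha-lactalbumin, was at 9.92, 10.4 and 10.3 against 10.9, 11.1 and 8.82, so the groups overlapped for both. In milk lipid synthesis, 28 genes had a median of 0.13 (-0.02 without replicate 1). Gpam, Lpl and Vldlr were called higher without replicate 1, while Agpat1, an acyltransferase of phosphatidic acid synthesis (-2.76, adjusted p = 0.0154), and Fads2, a fatty acid desaturase (-1.70, adjusted p = 0.0178), were called lower. With the muscle covariate the Agpat1 difference with all arrays went from -1.65 to -0.61. Of 9 cholesterol synthesis genes 0 were called, and Fdps was the farthest from 0 at 0.40.

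The prolactin and Stat5 list drives milk production, and Stat3 with LIF drives involution. Of 6 genes in the former, Ghr, the growth hormone receptor, was called higher without replicate 1 (1.49, adjusted p = 0.0245) and Cish, a feedback inhibitor induced by Stat5, lower (-1.69, adjusted p = 0.0253). Stat5b was at 1.58, 1.57 and 1.24 in wild type and at 2.62, 2.27 and 2.29 in E2F3 +/-, without overlap and with replicate 1 the highest (0.93 ± 0.31, adjusted p = 0.321). Of 5 genes in the latter list, Jak1, a kinase of cytokine receptors, was at 0.28, 0.60 and 0.32 against 0.78, 1.63 and 1.14 and was called higher without replicate 1 (0.99, adjusted p = 0.0181). Socs3, the feedback inhibitor induced by Stat3, was at -0.14, 0.02 and -0.04 against -0.41, -0.96 and -1.03 and did not pass (-0.75 ± 0.29, adjusted p = 0.332). Stat3 itself overlapped between the groups.

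Of 11 acute phase genes, 10 had a difference below 0, with a median of -0.68 (-1.04 without replicate 1). None passed under either set of arrays, and 6 of the 11 had every E2F3 +/- array below wild type. Saa1, a serum amyloid protein, was at 7.99, 8.10 and 8.34 in wild type and at 7.63, 7.42 and 4.11 in E2F3 +/- (-1.76 ± 1.01, adjusted p = 0.437). Lcn2, a siderophore-binding protein abundant in involuting epithelium, was at 8.51, 8.82 and 8.77 against 8.36, 8.28 and 8.12 (-0.45 ± 0.37, adjusted p = 0.570). The low values of Saa1, Saa2 and Saa3 rest largely on replicate 3. With the muscle list as a covariate the Saa1 difference was -0.62 (adjusted p = 0.983).

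The calls on the lysosome list, which does not hold Idua, were all lower. Of 24 tested, Gusb, Laptm4a and Neu1 were called lower without replicate 1 and 0 higher, and 6 of 24 had all E2F3 +/- arrays below wild type, with a list median of -0.25 (-0.14 without replicate 1). Gusb, the lysosomal glucuronidase, was at -1.82, -1.88 and -1.70 in wild type and at -2.17, -4.35 and -3.32 in E2F3 +/- (-2.03 without replicate 1, adjusted p = 0.00945). Cd63, a tetraspanin of late endosomes, was at 0.48, 0.54 and 0.49 against -0.19, -2.08 and -0.79 and did not pass (-1.52 ± 0.58, adjusted p = 0.326). Replicate 2 was the lowest array for both genes.

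The cell death and remodelling lists held 1 or 2 calls each. Without replicate 1, 1 of 9 apoptosis genes was called: Bak1, a pore former of the mitochondrial outer membrane, at -0.46, -0.35 and -0.35 in wild type and -0.59, -2.72 and -2.17 in E2F3 +/- (-2.06, adjusted p = 0.0213). One of 9 TGF-beta and BMP genes was called, Tgfb1, the cytokine itself, at 0.28, 0.38 and 0.30 against -0.21, -2.93 and -1.22 (-2.39, adjusted p = 0.0179). Both genes had every E2F3 +/- array below wild type. Timp2 was the single call among 8 matrix proteases and inhibitors. Among 25 collagens, laminins and matrix glycoproteins, Col8a1 (1.18, adjusted p = 0.0493) and Col16a1 (1.08, adjusted p = 0.0430) were called higher. Of 7 complement genes C4b was called lower (-2.55, adjusted p = 0.0292). The muscle covariate moved the differences with all arrays from -1.45 to -0.73 for Bak1, from -1.77 to -1.01 for Tgfb1, from -2.58 to -1.32 for Timp2 and from -1.21 to -0.50 for C4b. Not all named list genes moved as far. Jak1 went from 0.79 to 0.77, Neu1 from -2.05 to -1.72 and Thy1 from -1.07 to -0.80. The endothelial gene Plvap went up, from 1.04 to 1.35.

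No gene of the lists closest to E2F was called. Of 10 tested E2F target and replication genes, 0 passed with or without replicate 1 and 1 was without overlap, with a median of 0.14 (0.18 without replicate 1). Mcm7, a subunit of the replicative helicase, was at -1.79, -2.11 and -1.96 in wild type and at -1.74, -0.64 and -1.43 in E2F3 +/- (0.68 ± 0.31, adjusted p = 0.358). Pcna, the sliding clamp of DNA polymerase, was at -1.99, -1.96 and -1.85 against -2.14, -1.58 and -1.51 and overlapped. Mki67, a marker of dividing cells, was at -3.31, -4.25 and -3.93 against -5.15, -3.03 and -3.38, with replicate 1 the lowest. Of 6 mitosis genes 0 were called (median 0.11). Of the E2F and retinoblastoma family list, 3 were tested, and Cdk4 (-0.77 ± 0.49) and Ccnd2 (0.25 ± 0.33) did not pass (adjusted p = 0.469 and 0.737).

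Because E2F3 binds near gene starts, the promoters of the named genes were searched for TTTCCCGC, TTTGGCGC, TTTCGCGC and TTTGCCGC on both strands, from 250 bases before to 50 after the start, in RefSeq promoters of GRCm38.p6. The sequences below, in capitals where a motif matches, show the E2F target Mcm7 and, from the genes called without replicate 1, the one with the largest fall and the one with the largest rise among those with a match before the start. Each is read on the strand of its gene, at chr5:138172021-138172068 (minus strand) for Mcm7, chr15:25413884-25413931 (minus) for Basp1 and chr8:105900238-105900285 (plus) for Pskh1.
Mcm7: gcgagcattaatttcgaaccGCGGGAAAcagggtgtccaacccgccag
Basp1: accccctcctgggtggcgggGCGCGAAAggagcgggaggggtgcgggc
Pskh1: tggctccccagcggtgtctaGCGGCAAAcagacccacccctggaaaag
The matches begin 165, 147 and 216 bases before the start of Mcm7, Basp1 and Pskh1. For this count a gene was taken as called when any of its probes with 1 symbol was called, 147 lower and 81 higher. Not all of them have a promoter sequence. A match was present in 6 of 125 promoters of genes called lower (4.80%) and in 4 of 67 of genes called higher (5.97%), beside 105 of 2351 tested genes (4.47%) and 704 of 27025 genes of the promoter table (2.60%). In the E2F target list 2 of 8 promoters held one. A match describes letters in this window and does not show binding.

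Other cell type lists held few calls. Of 17 macrophage genes, 14 were below 0 with a median of -0.49 (-0.13 without replicate 1) and 0 calls. Retnla, a secreted product of alternatively activated macrophages and also of fat tissue, was at 4.06, 6.08 and 1.86 in wild type and at 5.97, 6.68 and 7.77 in E2F3 +/-, which overlap, and its ratios are bounded by a reference at its lowest value. Cd68, a lysosomal glycoprotein of macrophages, was at 0.11, 0.68 and 0.85 in wild type and at -0.73, -0.80 and 0.33 in E2F3 +/-. Replicates 1 and 2 of E2F3 +/- were below wild type for Cd68 while replicate 3 was within it.

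Luminal epithelium held 0 calls among 13 genes, of which 7 were above 0 (median 0.20, and 0.13 without replicate 1). Its keratins Krt8 and Krt18 differed by 0.26 and 0.31. Tmprss2, the member farthest from 0, differed by -1.41, and by -2.41 without replicate 1, and did not pass. All 4 myoepithelial genes overlapped between the groups, though Mylk, the smooth muscle myosin kinase, was called lower without replicate 1 (-1.56, adjusted p = 0.0240). Of 25 fibroblast genes 1 was called: Thy1, a surface protein shared with T cells, was at 0.06, -0.07 and -0.15 in wild type and at -0.28, -1.49 and -1.60 in E2F3 +/- (-1.49 without replicate 1, adjusted p = 0.00945). Of 7 endothelial genes 0 were called. The T and NK cell list had 2 tested genes, 1 of them Thy1. For B and plasma cells and for neutrophils and eosinophils 1 gene each was tested, and no red blood cell gene is on the array.

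The remaining lists gave these counts without replicate 1. Among 61 solute carriers 0 were called higher and 3 lower, namely Slc35b2, the zinc importer Slc39a14 (-1.87, adjusted p = 0.0223) and the heme transporter Slc48a1 (-1.69, adjusted p = 0.0355). Of 27 proteasome genes, Psma3 (-0.83, adjusted p = 0.0496) and Psmd8 (-1.49, adjusted p = 0.0459) were called lower. No gene was called among 30 ribosomal proteins, 14 interferon response genes, 5 MHC class II genes, 17 chaperones of the unfolded protein response or 11 immediate early genes. The list medians with all arrays were 0.03, -0.07, -0.27, 0.19 and 0.34 in that order.

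Some probes had values in 1 genotype only and were not tested. On 43 probes all 3 E2F3 +/- arrays and no wild type day 3 array had a value, and on 1 probe the reverse held. Their E2F3 +/- means included 0.63 for Tnni1, the slow skeletal troponin, and 0.98 for Foxa1, a factor of hormone-sensing luminal cells. The number of probes with a value was 6077, 5762 and 5765 on the wild type arrays and 6060, 6039 and 6082 on the E2F3 +/- arrays, so wild type replicates 2 and 3 had more ratios listed at 0 (460 and 447) than the other day 3 arrays (173 to 221). What a ratio of 0 stands for is not given in the sources used here.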

How the data were processed

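The deposited table gives 1 ratio per probe and array for 6267 probes on 30 arrays, per the labels Cy5 gland RNA and Cy3 reference RNA on 2-colour arrays. The authors deposited linear ratios, and the sources used here do not say how they scanned, corrected and normalized the arrays. Ratios of 0 (13146 values) or 0.01 (1223 values) were taken as missing. The rest were log2 transformed and centred on each array's median. A probe was tested with a value on at least 2 of 3 arrays of every group (5010 probes, 1257 set aside).

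Probe names came from the platform table: 3997 probes carry 1 symbol, 115 several and 2155 none. Only probes with 1 symbol are named. Differences were tested in limma 3.58.1 (R 4.3.3) in 1 model of 10 group means over 30 arrays with 20 residual degrees of freedom, with Benjamini-Hochberg adjustment over all tested probes and a threshold of 0.05. Tables and figures used Python 3.11.15, pandas 2.3.3, numpy 2.4.6 and matplotlib 3.10.9. The labels name 3 mice per genotype and time, so arrays are separate animals, and 3 arrays per group limit the precision. In the interaction test, the day 3 genotype difference was set against the mean of those at the other 4 times.

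The arrays, the 35 gene lists and the rule for named genes were chosen with earlier results of these data known. The rule takes probes passing with and without E2F3 +/- day 3 replicate 1. As none passed with all arrays, it names the 5 with the smallest p in each direction, the member of each list of at least 4 tested genes with the largest difference, and every E2f probe. Lists use 1 probe per gene, the one measured on most arrays.

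On simulated data with 50 changed probes per size among 5010, the day 3 model with all arrays recovered 2%, 28%, 92% and 100% of probes changed 1.5-, 2-, 4- and 8-fold, with 2 false calls. Without replicate 1 it recovered 4%, 24%, 84% and 100%, with 4 false calls. The simulated noise was independent between arrays and had the same spread on every array of a probe. It did not hold the wider spread of the E2F3 +/- day 3 arrays or the likeness of replicate 1 to wild type. These rates may therefore not carry over to the real arrays.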

Additional observations from a re-analysis of the deposited data

How the results depend on the processing

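With all arrays, the count of 0 passing probes held under the 3 probe filters, with ratios of 0.01 kept, without centring, with quantile normalization, with only the day 3 arrays (593 at an unadjusted p under 0.05), with the muscle list as a covariate (227) and with a replicate block (649). It was 863 (325 higher, 538 lower) with limma's array weights, which gave E2F3 +/- replicate 1 a weight of 0.291, and 348 of these were among the 365 called without that array. It was 85 (32 higher, 53 lower) without wild type day 2 replicate 3 and E2F3 +/- day 4 replicate 3, a setting chosen after seeing the data, and 53 of the 85 were among the 365. Leaving out 1 day 3 array gave 0 to 365. The count of 365 without replicate 1 became 401 without centring, 367 with quantile normalization (139 higher, 228 lower, against 98 and 267), 326 with the replicate block, 952 with only the day 3 arrays, 997 with array weights, 1143 without the pair of arrays of other times and 60 with the muscle covariate. The test against other times gave 464 with array weights and 0 to 302 when 1 array was left out, and 0 in the other settings. The causes were not tested. Replicate numbers were not taken to pair the samples, as the deviations of same-numbered arrays correlated at 0.16, 0.23 and -0.11.

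Of 683 values of the 41 named genes under other settings, 616 kept direction and side of the threshold and 62 came to pass (28 with array weights, 20 without replicate 1). Direction changed in 5: E2f1 to 0.32 with quantile normalization and 0.11 with the muscle covariate, Hspb1 to -0.065 and Actg2 to -0.050 with that covariate, and Tmprss2 to 0.15 without E2F3 +/- replicate 3 (leaving out 1 array at a time gave -2.41 to 0.15, for a probe whose reference sits at its lowest value). With 3 arrays a group, a change of a factor of 2 was seldom recovered in simulated data with an equal spread on all arrays.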
